A study of Homo sapiens with 9 samples.

Results

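The subunits of the mitochondrial respiratory chain and of ATP synthase were examined in HaCaT cells, an immortalized human keratinocyte line, after ultraviolet A (UVA) irradiation with and without an extract of *Coreopsis tinctoria* (CT). The members were chosen by gene name only: the NDUFA, NDUFB, NDUFC, NDUFS and NDUFV genes, SDHA to SDHD, the UQCR genes, 10 nuclear COX genes, 12 nuclear ATP synthase genes and the 13 protein-coding genes of mitochondrial DNA. The rule matched 87 of 61311 genes in the table, of which 2 noncoding genes were left out, so 85 members remained. They comprised 72 nuclear genes (36 of complex I, 4 of complex II, 9 of complex III, 11 of complex IV with NDUFA4 among them, and 12 of complex V) and 13 mitochondrial genes (7 of complex I, 1 of complex III, 3 of complex IV and 2 of complex V).

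The respiratory chain sits in the inner mitochondrial membrane. Complexes I and II take electrons from NADH and succinate, complex III passes them to cytochrome c, complex IV hands them to oxygen, and ATP synthase, or complex V, uses the resulting proton gradient to make ATP. Most subunits are encoded in the nucleus and imported, whereas some subunits of complexes I, III, IV and V are encoded by mitochondrial DNA. The mitochondrial genes are transcribed as long precursors that are cut into mRNAs. In skin, mitochondria are both a source and a target of the reactive oxygen that UVA produces.

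Bulk mRNA sequencing was carried out on 3 groups of 3 libraries each, all from wild-type HaCaT cells in the same medium. The CT group received UVA at 5 J/cm2 and, per the study's methods, the extract after the irradiation, the UVA group received the same UVA dose alone, and the NC group was the unirradiated control. The design therefore holds no group with extract and no UVA. HaCaT is 1 cell line, and nothing in the labels says that libraries of a group came from separate cultures, so each p-value reflects the spread among these libraries alone, which may be technical.

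Each library held 16390289 to 21971215 counts, and scaling factors lay between 0.976 and 1.01. The defining markers of basal keratinocytes were abundant (summed level of 9 genes, 4999 to 5225 CPM in CT, 4809 to 5282 CPM in UVA and 5766 to 6687 CPM in NC libraries), and the summed levels of fibroblast, leukocyte, melanocyte and endothelial markers stayed at or below 9.75 CPM in all 9 libraries. The keratinocyte sum was lower in all CT and UVA libraries than in all NC libraries, and its part in the results below was not tested. In bulk RNA, fewer cells of a type and less RNA per cell cannot be told apart. Levels are given as CPM, counts scaled to a common library size after TMM normalization, and a gene was called where edgeR's quasi-likelihood test gave a Benjamini-Hochberg adjusted p under 0.05 over all 15154 genes tested. All 85 members passed the filter on low counts. The UVA libraries enter both the comparison with NC and the comparison with CT, so these comparisons are not independent and their values are given side by side.

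Upstream bases of 6 nuclear members are shown because their letters hold motifs of NRF1 or of ETS factors such as GABP, regulators long known to drive nuclear respiratory genes, and because 5 of the 6 genes were called in a comparison below. Each line gives 60 bases ahead of the RefSeq transcription start on the gene's own strand, from GRCh38.p14, with the motif in capitals. ATP5F1A, minus strand, chr18:46098318-46098377, carries an ETS motif in reverse orientation, and COX5B, plus strand, chr2:97645993-97646052, and NDUFA13, plus strand, chr19:19516165-19516224, carry an ETS motif in forward orientation. NDUFS7, plus strand, chr19:1383802-1383861, and SDHB, minus strand, chr1:17054205-17054264, carry the NRF1 motif, and SDHD, plus strand, chr11:112086763-112086822, which was called in no comparison, carries both.
ATP5F1A: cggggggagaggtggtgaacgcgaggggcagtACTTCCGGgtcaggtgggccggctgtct
COX5B: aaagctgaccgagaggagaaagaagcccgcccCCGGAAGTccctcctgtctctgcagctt
NDUFA13: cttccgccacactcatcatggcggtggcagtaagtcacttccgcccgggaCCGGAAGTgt
NDUFS7: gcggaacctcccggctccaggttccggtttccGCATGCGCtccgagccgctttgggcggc
SDHB: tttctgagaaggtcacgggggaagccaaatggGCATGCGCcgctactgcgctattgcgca
SDHD: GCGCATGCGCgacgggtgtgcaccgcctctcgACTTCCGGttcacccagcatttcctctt

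RefSeq promoters, from 250 bases before to 50 bases after the start, were at hand for 60 of the 72 nuclear members, as 70 promoters. Exact matches on either strand were counted for GCGCATGC (NRF1), which overlaps its own reverse complement, for CCGGAAGT (ETS) and for AAGATGGC (YY1). The NRF1 motif occurred in 18.6% of the members' promoters and in 3.05% of all 35116 promoters in the table, the ETS motif in 15.7% and 4.14%, the YY1 motif in 18.6% and 2.89%, and at least 1 of the 3 in 42.9% and 9.36%. Among the 15764 promoters of genes that were tested, 15.5% held at least 1 motif. Of the 12 nuclear members with a promoter that were called lower in UVA than in NC, 6 held a motif (ATP5F1A, ATP5PO, COX5B, NDUFA13, NDUFB8 and NDUFS7), against 29 of all 60. The 3 nuclear members called higher in CT than in UVA (ATP5F1E, COX7B and NDUFC1) held none of these letters in this window. A match is a description of letters and does not show binding.

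The mitochondrial mRNAs were by far the more abundant members. Per kilobase of exon, the level over all 9 libraries was highest for COX1, at 8655 CPM per kb, COX3, at 6905, and COX2, at 6548, and lowest for ND6, at 909 CPM per kb. The libraries were enriched for poly(A) RNA, and how evenly these mRNAs were captured was not tested. The nuclear members ranged from 1.06 CPM per kb for UQCRHL, an intronless copy of UQCRH whose reads may be shared with it, to 461 CPM per kb for ATP5F1B, the catalytic beta subunit of ATP synthase. The most abundant nuclear member per kilobase was NDUFS5 in complex I (142 CPM per kb), SDHD in complex II (92.6), UQCRH in complex III (231) and COX6A1 in complex IV (228). Exon length here is the union of all annotated exons, so it overstates the length of the mRNA of genes with many isoforms.

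The summed share of counts in the 13 mitochondrial members was 4.11% to 4.30% in CT, 4.26% to 4.30% in UVA and 4.25% to 4.70% in NC libraries, and these ranges overlapped. The share of the 72 nuclear members was 0.741% to 0.753% in CT, 0.711% to 0.737% in UVA and 0.756% to 0.784% in NC libraries, with no overlap between any of the groups. After TMM scaling their sum was 7453 to 7593 CPM in CT, 7103 to 7297 in UVA and 7513 to 7840 in NC libraries. On that scale CT and NC overlapped, and only UVA stood apart. The ratio of mitochondrial to nuclear subunit counts was 5.51 to 5.77 in CT, 5.79 to 6.05 in UVA and 5.62 to 6.04 in NC libraries. Sums over members were given no test.

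Part of the nuclear subunits had lower levels after UVA irradiation, by small amounts. Of the 72 nuclear members, 15 fell in UVA against NC, beside 10.6% of all tested genes that were called lower, and 0 rose, beside 10.5% called higher. The median log2 fold change of the 72 was -0.09, against 0.00 over all tested genes, and 63 of the 72 values were negative. In 28 nuclear members all 3 UVA libraries lay below all 3 NC libraries (19% of all tested genes) and in 2 they lay above (18.9%). At an unadjusted p under 0.05, 28 nuclear members were lower (16.6% of all tested genes) and 1 was higher (16.8%), and DESeq2 and limma-voom also called 0 higher. The called members were spread over every complex: 7 of complex I, 1 of complex II, 1 of complex III, 2 of complex IV and 4 of complex V.

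SDHA, the flavoprotein subunit through which complex II oxidizes succinate, had 147, 131 and 135 CPM in UVA libraries, against 155, 163 and 166 CPM in NC libraries. Every UVA value lay below every NC value. The log2 fold change was -0.23 ± 0.05 (SE), a fold of 0.854, with an edgeR adjusted p of 0.00189. The other 3 subunits of complex II were not called: on the log2 scale the change was 0.03 for SDHB, the iron-sulfur subunit, and -0.09 and -0.08 for the membrane anchors SDHC and SDHD.

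The F1 head of ATP synthase held 3 of the called members of complex V. ATP5F1A, the alpha subunit, had 565, 548 and 555 CPM in UVA libraries, against 604, 633 and 639 CPM in NC libraries (log2 fold change -0.17 ± 0.04 SE, edgeR adjusted p 0.00233). ATP5F1B, the beta subunit, had 834, 807 and 811 CPM in UVA libraries, against 871, 910 and 917 CPM in NC libraries (-0.14 ± 0.04, edgeR adjusted p 0.0085). For both, the groups did not overlap. ATP5F1E, the small epsilon subunit, had 73.4, 72.7 and 70.7 CPM in UVA libraries, against 79.7, 80.5 and 83.6 CPM in NC libraries (-0.17 ± 0.05, edgeR adjusted p 0.0161), again without overlap. ATP5PO, which joins the peripheral stalk to the F1 head, was the fourth, with a log2 fold change of -0.15.

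In complex I, core subunits that carry electrons were among those that fell. NDUFS8, which holds iron-sulfur clusters, had 33.7, 27.1 and 28.6 CPM in UVA libraries, against 34.9, 37.9 and 36.8 CPM in NC libraries, a log2 fold change of -0.29 ± 0.08 (SE). NDUFA13, an accessory subunit, had 44.0, 40.8 and 39.7 CPM in UVA libraries, against 48.7, 50.7 and 47.1 CPM in NC libraries, a log2 fold change of -0.23 ± 0.07. The UVA values of NDUFS8 and NDUFA13 lay below every NC value. The edgeR adjusted p was 0.0129 for NDUFS8 and 0.0182 for NDUFA13. NDUFS7 (-0.30), NDUFV1 (-0.14), NDUFB7 (-0.32) and NDUFB8 (-0.16) were also called, of which NDUFB7 overlapped between the groups. The remaining 29 of the 36 nuclear complex I members were not called.

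Complexes III and IV held fewer called members. UQCRB, a small subunit of complex III near its ubiquinone site, had 98.3, 100 and 94.4 CPM in UVA libraries, against 107, 113 and 110 CPM in NC libraries (log2 fold change -0.17 ± 0.05 SE, edgeR adjusted p 0.00961). COX7B, an accessory subunit of complex IV, had 157, 161 and 161 CPM in UVA libraries, against 173, 190 and 174 CPM in NC libraries (-0.17 ± 0.04, edgeR adjusted p 0.00999). COX5B, a subunit on the matrix side of complex IV, had 62.9, 56.3 and 55.1 CPM in UVA libraries, against 65.5, 68.9 and 68.9 CPM in NC libraries (-0.22 ± 0.06, edgeR adjusted p 0.0152). None of these overlapped between the groups.

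The count of 15 depended on single libraries. It was 4 without NC replicate 2 and 4 without UVA replicate 3, 8 without UVA replicate 2 and 9 without NC replicate 3. Calls over all tested genes, in either direction, also fell in these fits, from 3202 to 2185, 2181, 2163 and 2136 in the same order. SDHA, ATP5F1A and ATP5F1B kept their calls whichever library was left out. NDUFV1 was the only 1 of the 15 not called by DESeq2 (adjusted p 0.0622) or limma-voom (0.0704).

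**Figure D1:**
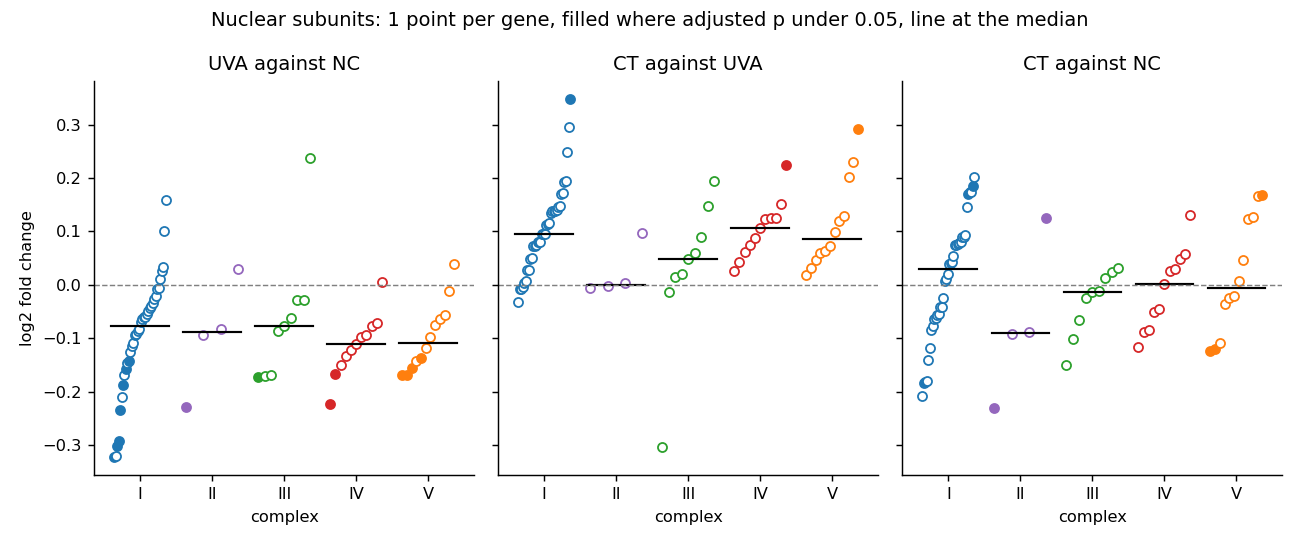
Log2 fold change of each of the 72 nuclear subunits (y axis) by complex (x axis) in the 3 comparisons, each panel titled with the group compared first; filled points were called at an adjusted p under 0.05 and lines mark the median of a complex. In UVA against NC the medians of all 5 complexes are negative, from -0.11 to -0.08, and in CT against UVA those of complexes I, III, IV and V are positive, from 0.05 to 0.11.

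Among the mitochondrial members, 3 of 13 fell in UVA against NC (beside 10.6% of all tested genes) and 0 rose (beside 10.5%). Their median log2 fold change was -0.06, and it was -0.09 without NC replicate 1 and -0.03 without NC replicate 3. At an unadjusted p under 0.05, 4 were lower (16.6% of all tested genes) and 0 higher (16.8%), and 0 were called higher by DESeq2 or limma-voom. COX3, a core subunit of complex IV, had 4995, 5458 and 5421 CPM in UVA libraries, against 5661, 6036 and 6293 CPM in NC libraries (log2 fold change -0.18 ± 0.04 SE, edgeR adjusted p 0.00427). ATP6, which forms the proton path of ATP synthase, had 2493, 2396 and 2416 CPM in UVA libraries, against 2629, 2776 and 2757 CPM in NC libraries (-0.16 ± 0.03, edgeR adjusted p 0.00264). Both genes were lower in every UVA library than in every NC library. ATP8, the smaller ATP synthase subunit of the mitochondrial genome, had 206, 204 and 206 CPM in UVA libraries, against 210, 260 and 256 CPM in NC libraries (-0.24 ± 0.07, edgeR adjusted p 0.0324). The ATP8 groups were separate only by the gap to NC replicate 1, and its call was lost on leaving out any of NC replicates 2 and 3, the UVA replicates or CT replicate 3 (edgeR adjusted p 0.0684 to 0.125), and without CT libraries in the fit (0.0552). Without NC replicate 1, 6 mitochondrial members were called lower. The 7 mitochondrial complex I genes gave log2 fold changes of -0.10 to 0.05, and none was called.

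Most nuclear subunits had higher values in CT than in UVA libraries, of which few passed the test. Of the 72 nuclear members, 3 rose in CT against UVA, beside 0.944% of all tested genes called higher, and 0 fell, beside 0.614% called lower. The median log2 fold change was 0.09, against 0.00 over all tested genes, and 64 of 72 values were positive. With the correction for exon length described below, the median was 0.04, with 52 of 72 values positive. Values were also mostly positive among 76 cytosolic ribosomal proteins (66 positive, median 0.06) and 76 mitochondrial ribosomal proteins (71 positive, median 0.11). Of these, 7 and 4 were called higher, and 0 of either list lower. The shift was therefore not particular to the subunits. In 26 nuclear members all CT libraries lay above all UVA libraries (9.77% of all tested genes) and in 1 they lay below (9.01%). At an unadjusted p under 0.05, 24 nuclear members were higher (7.4% of all tested genes) and 0 were lower (5.79%), and DESeq2 and limma-voom also called 0 lower.

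ATP5F1E had 88.2, 90.7 and 86.4 CPM in CT libraries, against 73.4, 72.7 and 70.7 CPM in UVA libraries. The CT values lay above every UVA value and also above every NC value. The log2 fold change in CT against UVA was 0.29 ± 0.05 (SE), a fold of 1.22, with an edgeR adjusted p of 0.00152, and it kept its call whichever library was left out. In CT against NC, ATP5F1E was not called (0.12, edgeR adjusted p 0.0563), and 21.8% of all tested genes had all CT libraries above all NC libraries. COX7B had 188, 181 and 190 CPM in CT libraries, against 157, 161 and 161 CPM in UVA libraries (0.22 ± 0.04, edgeR adjusted p 0.00791). Its CT values overlapped those of NC, and its call was lost without UVA replicate 1 (edgeR adjusted p 0.0681). NDUFC1, a small accessory subunit of complex I, had 22.9, 27.0 and 23.9 CPM in CT libraries, against 19.5, 20.1 and 18.3 CPM in UVA libraries (0.35 ± 0.09, edgeR adjusted p 0.0457). The groups of NDUFC1 did not overlap, but its call was lost without NC replicate 2, any UVA replicate, CT replicate 2 or CT replicate 3 (edgeR adjusted p 0.0734 to 0.264), and with limma-voom (0.0681).

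Next in order of p were UQCRB, with 107, 107 and 111 CPM in CT libraries, against 98.3, 100 and 94.4 CPM in UVA libraries, and NDUFA4, a subunit of complex IV, with 91.2, 99.1 and 98.0 CPM in CT libraries, against 90.4, 86.9 and 82.4 CPM in UVA libraries. Neither passed the test (log2 fold changes of 0.15 and 0.15, edgeR adjusted p 0.117 and 0.155), although the groups of each were separate. SDHA, ATP5F1A and ATP5F1B, the nuclear members with the smallest p in UVA against NC, had log2 fold changes of 0.00, 0.05 and 0.02 in CT against UVA. Those values carry SEs of 0.05, 0.04 and 0.04.

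**Figure D2:**
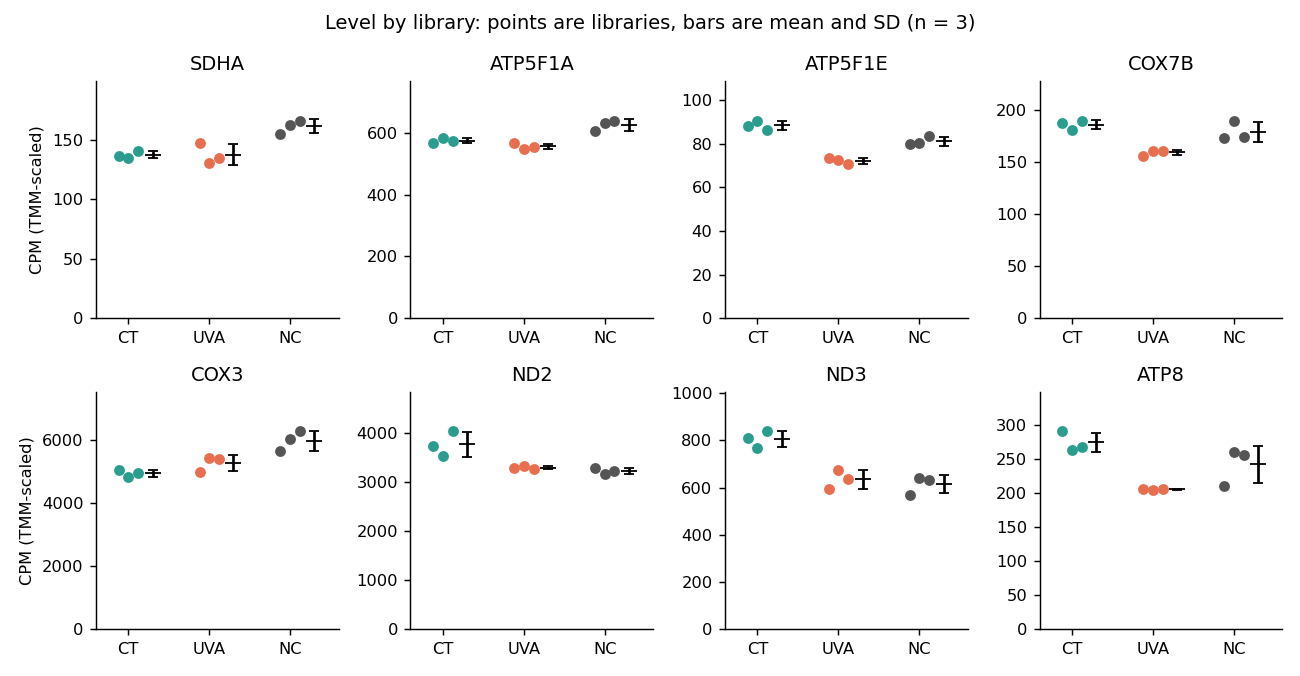
Level in CPM (y axis, starting at 0) of 4 nuclear and 4 mitochondrial subunits in the CT, UVA and NC groups; points are libraries and bars give the mean and SD of 3 libraries. ATP5F1E and ND3 stand above both other groups in every CT library, SDHA is lower in all CT and UVA libraries than in all NC libraries, and ATP8 is near 205 CPM in each UVA library.

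In the mitochondrial genome, 3 of 13 members rose in CT against UVA (beside 0.944% of all tested genes) and 0 fell (beside 0.614%). The median log2 fold change was 0.03, with 8 values positive and 5 negative. It was 0.01 with library size as the only scaling and 0.02 without UVA replicate 2 or CT replicate 1, and with the correction for exon length it was -0.03, with 6 values positive and 7 negative. At an unadjusted p under 0.05, 6 were higher (7.4% of all tested genes) and 2, COX1 and COX3, were lower (5.79%), and 0 were called lower by DESeq2 or limma-voom. ND3, a membrane subunit of complex I, had 812, 769 and 839 CPM in CT libraries, against 595, 673 and 636 CPM in UVA libraries. Every CT value lay above every UVA value and every NC value. The log2 fold change was 0.35 ± 0.05 (SE), a fold of 1.27, with an edgeR adjusted p of 0.00133, and the call held whichever library was left out. ND2, another membrane subunit of complex I, had 3748, 3528 and 4040 CPM in CT libraries, against 3283, 3327 and 3276 CPM in UVA libraries (0.20 ± 0.04, edgeR adjusted p 0.0145), with no overlap. ATP8 had 290, 264 and 268 CPM in CT libraries, against 206, 204 and 206 CPM in UVA libraries, also with no overlap (0.42 ± 0.07, edgeR adjusted p 0.0104). The calls of ND2 and ATP8 were lost on leaving out any UVA replicate or CT replicate 3, which left 1 call (edgeR adjusted p 0.0538 to 0.0967), and that of ND2 with the correction for exon length described below (0.106). Calls over all tested genes in CT against UVA also fell without any UVA replicate or CT replicate 3, from 236 to between 95 and 124.

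ATP8 and ATP6 share one mRNA and overlap by 46 bases, 22.2% of ATP8, and ND4L and ND4 overlap by 7 bases, so reads in these stretches may be assigned to either gene or to none. It is unknown how such reads were counted, so the values of ATP8 and ND4L are uncertain at least to that extent. Despite the shared mRNA, log2 fold changes in CT against UVA were 0.42 for ATP8 and 0.03 for ATP6. For ND4L and ND4 they were 0.19 and -0.005. The call of ATP8 therefore cannot be read as a change of a separate mRNA. ATP8, ND4L and ND3, of 207, 297 and 346 bases, are the shortest mitochondrial members, and ND3 was at 0.35. What part overlap or length played in these values was not tested. The shared bases of ATP8 and ATP6 are in capitals in the following stretch of the mitochondrial genome, GRCh38, plus strand, chrM:8513-8586, which starts in ATP8 and ends in ATP6.
ATP8 and ATP6: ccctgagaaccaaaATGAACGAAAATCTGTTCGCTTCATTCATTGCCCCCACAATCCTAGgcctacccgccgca

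Within the mitochondrial genome the members did not move together. In CT against NC, 3 of 13 rose (beside 15.7% of all tested genes called higher) and 4 fell (beside 14.2% called lower). The 3 that rose were complex I genes, and the 4 that fell were the 3 COX genes and ATP6. No difference between complexes was tested. ND3 had 812, 769 and 839 CPM in CT libraries, against 569, 639 and 634 CPM in NC libraries (log2 fold change 0.39 ± 0.05 SE, edgeR adjusted p 3.64e-05). ND2 had 3748, 3528 and 4040 CPM in CT libraries, against 3291, 3175 and 3227 CPM in NC libraries (0.22 ± 0.04, edgeR adjusted p 3.54e-04). In both genes every CT value was above every NC value. ND6, the only member encoded on the light strand, had 516, 488 and 518 CPM in CT libraries, against 434, 474 and 461 CPM in NC libraries (0.15 ± 0.05, edgeR adjusted p 0.0204). Whether the counting used strand is not given in the sources used here, so ND6 reads cannot be told from heavy-strand reads at that position.

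COX3 had 5064, 4826 and 4969 CPM in CT libraries, against 5661, 6036 and 6293 CPM in NC libraries (log2 fold change -0.28 ± 0.04 SE, edgeR adjusted p 6.55e-05). COX1, the catalytic subunit of complex IV, had 12652, 12504 and 12465 CPM in CT libraries, against 12882, 14497 and 15011 CPM in NC libraries (-0.17 ± 0.04, edgeR adjusted p 0.0054). COX2, the subunit that receives electrons from cytochrome c, had 4474, 4157 and 4047 CPM in CT libraries, against 4398, 4875 and 5207 CPM in NC libraries (-0.19 ± 0.05, edgeR adjusted p 0.0123). COX3 and COX1 were separate between the groups, whereas COX2 overlapped through CT replicate 1 and NC replicate 1. ATP6 had 2533, 2456 and 2479 CPM in CT libraries, against 2629, 2776 and 2757 CPM in NC libraries (-0.13 ± 0.03, edgeR adjusted p 0.00848), with no overlap.

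The calls of ND3, ND2, COX3, COX1 and ATP6 in CT against NC held whichever library was left out. That of COX2 was lost without CT replicate 2 or 3 (edgeR adjusted p 0.0508 and 0.0782), and that of ND6 without NC replicate 1 or CT replicate 1 or 3 (0.0555 to 0.0902) and with the correction for exon length described below (0.186). The other 6 mitochondrial members were not called: ATP8 (0.18), ND4L (0.09), ND1 (0.08), CYTB (-0.01), ND5 (-0.03) and ND4 (-0.06) on the log2 scale. In 5 mitochondrial members all CT libraries lay above all NC libraries (21.8% of all tested genes), and in 3 they lay below (21.2%).

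**Figure D3:**
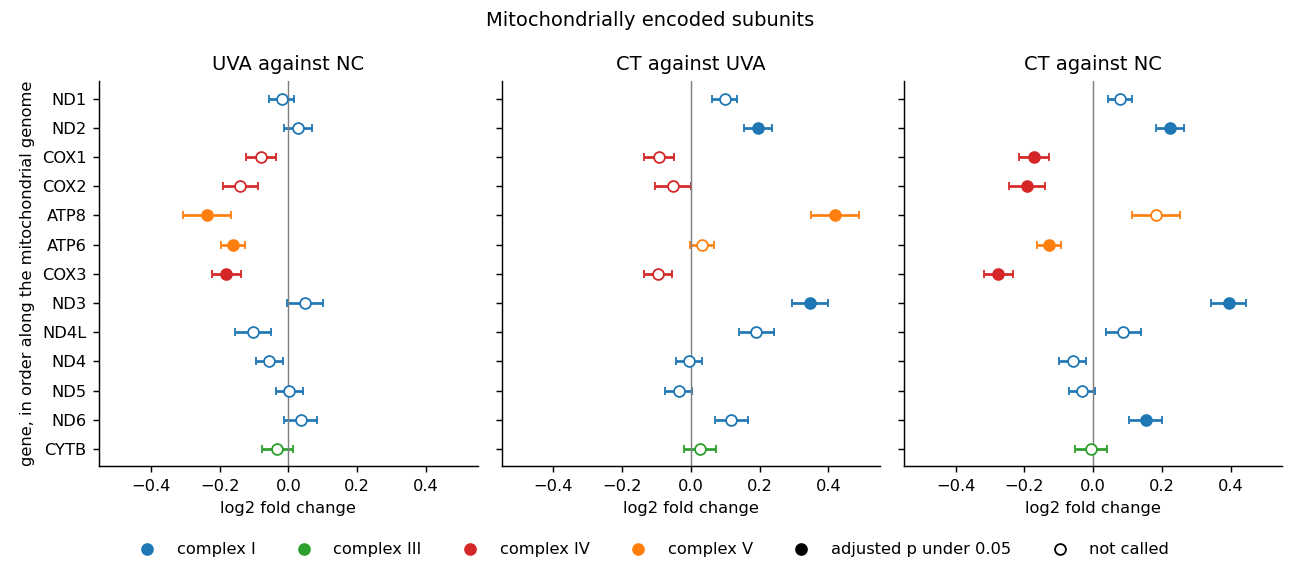
Log2 fold change with SE (x axis) of the 13 mitochondrial subunits (y axis, in order along the mitochondrial genome) in the 3 comparisons, each panel titled with the group compared first; colour gives the complex and filled points were called. In CT against NC, ND3 is at 0.39 and the protein-coding gene before it on the genome, COX3, at -0.28.

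Ratios of counts within a library do not depend on scaling between libraries. The following ratios were chosen after the changes of their genes were seen, so their separation between groups is no independent support. ND3 and ATP8, of 346 and 207 bases, are also shorter than COX3 and ATP6, of 784 and 681 bases. A ratio does not remove the trend on exon length described below, and its part here was not tested. ND3 counts over COX3 counts were 0.160, 0.159 and 0.169 in CT libraries, against 0.119, 0.123 and 0.117 in UVA libraries and 0.101, 0.106 and 0.101 in NC libraries. The CT ratios lay above all UVA ratios, and these above all NC ratios. The summed counts of the 7 ND genes over those of the 3 COX genes were 0.686, 0.680 and 0.712 in CT libraries, against 0.622, 0.628 and 0.608 in UVA libraries and 0.607, 0.576 and 0.554 in NC libraries, in the same order and without overlap. ATP8 over ATP6 was 0.115, 0.107 and 0.108 in CT libraries, against 0.0824, 0.0849 and 0.0852 in UVA libraries and 0.0798, 0.0936 and 0.0927 in NC libraries, so that only CT stood apart. Because ATP8 and ATP6 share an mRNA, this last ratio does not compare separate mRNAs.

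**Figure D4:**
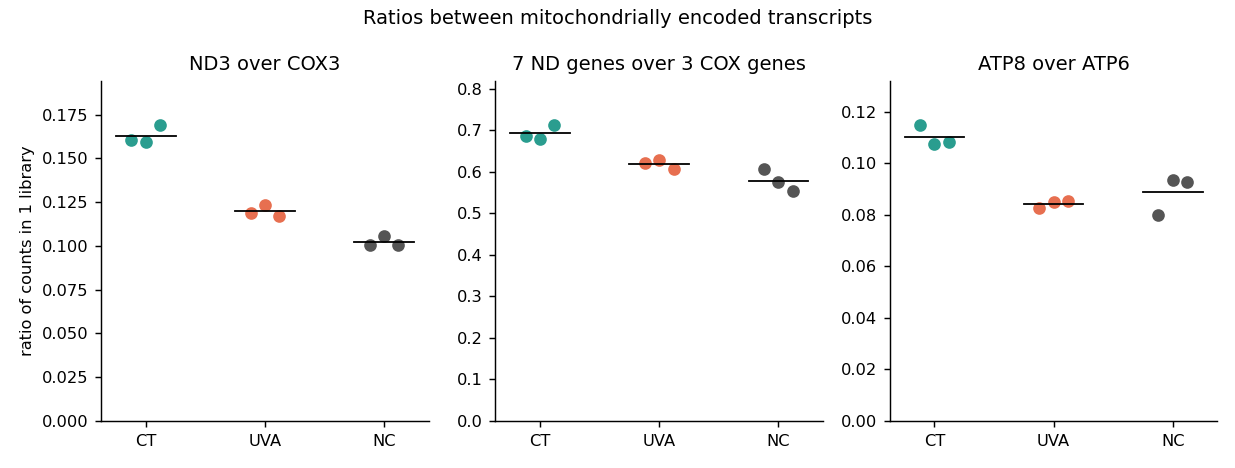
Ratios of raw counts between mitochondrial genes within each library (y axis, starting at 0) for CT, UVA and NC. Points are libraries and lines are group means. ND3 over COX3 is 0.159 to 0.169 in CT, 0.117 to 0.123 in UVA and 0.101 to 0.106 in NC libraries.

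The balance between the genomes can also be given per complex. For complex IV, mitochondrial over nuclear subunit counts were 16.5 to 17.0 in CT, 18.3 to 19.8 in UVA and 18.0 to 20.1 in NC libraries, and the CT range lay below both others. For complex I the ratio was 6.06 to 6.40 in CT, 6.13 to 6.28 in UVA and 5.90 to 6.05 in NC libraries. The ratio of complex V was 1.10 to 1.17 in CT, 1.12 to 1.13 in UVA and 1.14 to 1.17 in NC libraries. Every UVA value of complex V lay below every NC value, and CT overlapped both.

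Against the unirradiated control, few nuclear members of CT cells were called. Of 72, 5 rose in CT against NC, beside 15.7% of all tested genes, and 4 fell, beside 14.2%. The median log2 fold change was 0.00, with 37 values positive and 35 negative. It was -0.02 without NC replicate 1, -0.01 without CT replicate 3, 0.02 without CT replicate 1, -0.01 with library size as the only scaling and -0.03 with the correction for exon length. In 9 nuclear members all CT libraries lay above all NC libraries (21.8% of all tested genes) and in 15 they lay below (21.2%). SDHA, ATP5F1A and ATP5F1B were among those that fell, each also called lower in UVA against NC, a comparison with the same NC libraries. SDHA had 137, 135 and 141 CPM in CT libraries, against 155, 163 and 166 CPM in NC libraries (log2 fold change -0.23 ± 0.05 SE, edgeR adjusted p 9.68e-04). ATP5F1A had 567, 583 and 572 CPM and ATP5F1B 824, 827 and 831 CPM in CT libraries, against 604, 633 and 639 CPM and 871, 910 and 917 CPM in NC libraries. Their log2 fold changes were -0.12 and -0.12, and the groups of SDHA, ATP5F1A and ATP5F1B were separate.

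The members that rose belonged to complexes I, II and V. ATP5MF, a subunit of the membrane part of ATP synthase, had 76.3, 80.1 and 79.2 CPM in CT libraries, against 70.1, 71.7 and 67.9 CPM in NC libraries (log2 fold change 0.17 ± 0.05 SE, edgeR adjusted p 0.0163). NDUFC2, the partner of NDUFC1 in the membrane arm of complex I, had 68.0, 66.1 and 76.2 CPM in CT libraries, against 62.7, 63.4 and 58.9 CPM in NC libraries (0.19 ± 0.06, edgeR adjusted p 0.0258). NDUFV2, an iron-sulfur core subunit of complex I, had 56.5, 63.6 and 63.5 CPM in CT libraries, against 54.3, 54.6 and 54.3 CPM in NC libraries (0.17 ± 0.06, edgeR adjusted p 0.0311). All CT values of these genes were above all NC values. NDUFA12, an accessory subunit of complex I, had 55.6, 54.1 and 55.5 CPM in CT libraries, against 45.8, 51.0 and 49.8 CPM in NC libraries (0.17 ± 0.06, edgeR adjusted p 0.0404). SDHB had 89.5, 91.9 and 92.6 CPM in CT libraries, against 84.2, 83.2 and 83.7 CPM in NC libraries (0.13 ± 0.05, edgeR adjusted p 0.0415). Within complex II, SDHB and SDHA were thus called in opposite directions against the same NC libraries.

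Of these 9 calls, 8 were lost without NC replicate 3 (edgeR adjusted p 0.0511 to 0.107), and only SDHA kept its call whichever library was left out. Without NC replicate 2, 5 were lost (ATP5F1A, ATP5F1B, NDUFV2 and SDHB among them), without CT replicate 2, 4 (ATP5MF, NDUFA12, NDUFV2 and SDHB), without CT replicate 3, 4 (NDUFA12, NDUFC2, NDUFV2 and SDHB), and without NC replicate 1, 3 (NDUFA12, NDUFV2 and SDHB). SDHB was also lost without UVA replicate 1 or 3, and NDUFA12 without UVA replicate 3 or CT replicate 1. The counts were 0 higher and 1 lower without NC replicate 3, 4 higher and 1 lower without NC replicate 2, 1 higher and 4 lower without CT replicate 2 or 3, 2 higher and 7 lower without NC replicate 1, and 3 higher and 4 lower without UVA replicate 3. Over all tested genes, calls in CT against NC numbered 4517 with all libraries and 3377 without NC replicate 3. They numbered 3453 without NC replicate 2, 3479 and 3389 without CT replicates 2 and 3, 4557 without NC replicate 1 and 4275 without UVA replicate 3. DESeq2 called neither NDUFA12, NDUFV2 nor SDHB (adjusted p 0.0518 to 0.0778).

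Exon length moved with the CT comparisons. The exons of the nuclear members had a median length of 1604 bases and those of the mitochondrial members 784 bases, against 3637 bases over all tested genes with a length. In CT against UVA, the median log2 fold change of all tested genes was 0.16 for exon lengths up to 500 bases, 0.06 for 501 to 1000 bases, 0.04 for 1001 to 2000 bases, 0.02 for 2001 to 4000 bases and -0.03 for more than 8000 bases. The nuclear members of 501 to 1000 bases had a median of 0.09 (21 genes) and those of 1001 to 2000 bases 0.11 (22 genes). With each library corrected for its own trend on exon length, an alternative chosen after seeing the data, the median of the nuclear members in CT against UVA was 0.04, with 52 of 72 values positive and 2 called higher, ATP5F1E and COX7B. In CT against NC, 2 nuclear members were called higher with the correction, beside 17.8% of all genes tested in that fit, and 14 lower, beside 16.7%. Of the 5 that rose without it, ATP5MF, NDUFA12, NDUFV2 and SDHB lost their calls (edgeR adjusted p 0.0794 to 0.228) and NDUFC2 kept its call, and ATP5F1E was the other member called higher. The 4 that fell kept their calls. The correction gave 22 of 72 positive values in CT against NC, with the median of -0.03 given above. In UVA against NC it changed little, with a median of -0.09 and 18 called lower. The part of exon length in the CT results was not tested further.

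**Figure D5:**
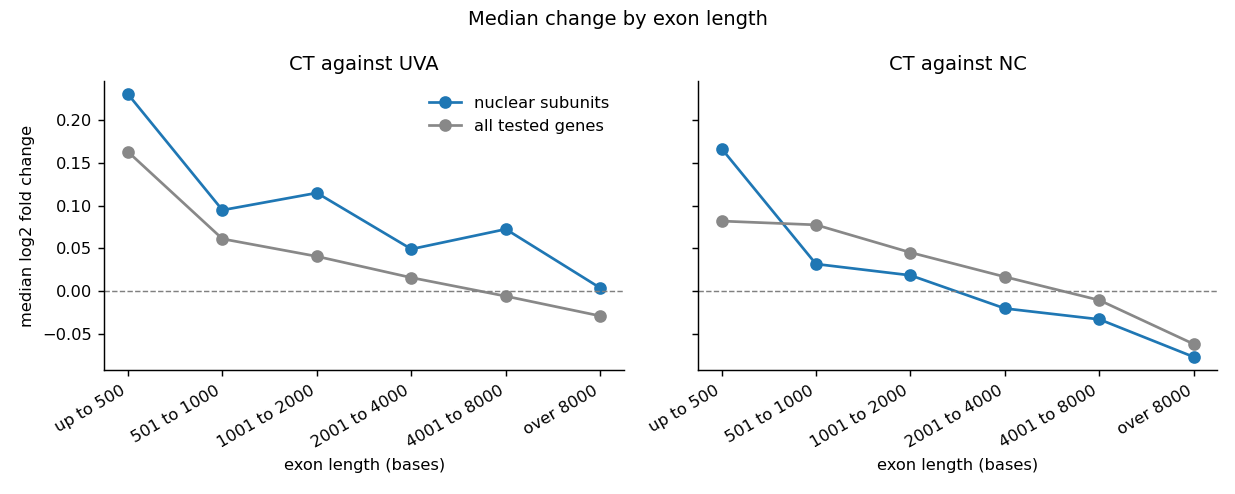
Median log2 fold change (y axis) of the nuclear subunits and of all tested genes by exon length in bases (x axis) in CT against UVA and CT against NC. In CT against UVA the median of all genes is 0.16 in the shortest bin, which holds 1 nuclear subunit, and -0.03 in the longest, which holds 3.

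Genes that serve the respiratory chain without being subunits in the rule are given for comparison. Of 11 tested subunits outside it, 1 fell (beside 10.6% of all tested genes) and 1 rose (beside 10.5%) in UVA against NC. In CT against UVA, 1 of them rose (beside 0.944%). ATP5MC3, which encodes the c subunit of the ATP synthase rotor, had a mean of 158 CPM in CT, 139 CPM in UVA and 158 CPM in NC libraries, with log2 fold changes of -0.18 in UVA against NC and 0.19 in CT against UVA (edgeR adjusted p 0.022). CYCS, the cytochrome c that links complexes III and IV, rose in both irradiated groups, with a mean of 670 CPM in CT, 604 CPM in UVA and 540 CPM in NC libraries (log2 fold change 0.31 in CT against NC, edgeR adjusted p 8.17e-05).

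Assembly factors help to build the complexes and leave them afterwards. In CT against NC, 5 of 18 complex I assembly factors rose (beside 15.7% of all tested genes) and 0 fell (beside 14.2%) in edgeR (at an unadjusted p under 0.05, 6, beside 20.5% of all tested genes, and 0, beside 19.4%), and 10 of 38 assembly factors of the other complexes rose and 1 fell. Their median log2 fold changes were 0.07 and 0.11, against 0.00 for the 72 nuclear subunits. PET117, which acts in complex IV assembly, had a mean of 18.7 CPM in CT and 11.1 CPM in NC libraries (0.76, edgeR adjusted p 4.36e-05). In UVA against NC, 1 of 18 and 4 of 38 assembly factors rose (beside 10.5% of all tested genes), and 0 (unadjusted, 1, beside 16.6%) and 2 fell (beside 10.6%).

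The apparatus that expresses mitochondrial DNA is also encoded in the nucleus. In CT against NC, 25 of 76 mitochondrial ribosomal proteins rose (beside 15.7% of all tested genes) and 0 fell (beside 14.2%) in edgeR. At an unadjusted p under 0.05, 35 were higher (20.5% of all tested genes) and 0 lower (19.4%). Their median was 0.12 on the log2 scale. Of 16 genes of mitochondrial RNA processing and stability, 10 rose and 0 fell (unadjusted, 11 and 0), against the same adjusted and unadjusted shares. Their median was 0.18. SLIRP, which stabilizes mitochondrial mRNAs together with LRPPRC, was the only gene of the RNA list called in CT against UVA, with a mean of 37.3 CPM in CT and 28.8 CPM in UVA libraries (0.38, edgeR adjusted p 0.0108). The 2 mitochondrial ribosomal RNAs were not called in any comparison. Of 13 citric acid cycle genes, 4 fell (beside 10.6% of all tested genes) and 0 rose (beside 10.5%) in UVA against NC. At an unadjusted p under 0.05, 4 were lower (16.6% of all tested genes) and 1 higher (16.8%). OGDH, which makes succinyl-CoA, had a mean of 142 CPM in UVA and 169 CPM in NC libraries (-0.25, edgeR adjusted p 4.75e-04).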

How the data were processed

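Total RNA for 9 HaCaT libraries (3 CT, 3 UVA, 3 NC) was enriched for poly(A) RNA with oligo(dT) beads and sequenced on an Illumina platform. The authors deposited whole-number read counts per gene, 1 column per library, not normalized. The tools named in the submitters' processing notes are bcl2fastq and fastp 0.23.2, with GRCh38 as the genome build. Which aligner, counting tool, annotation and strand setting were used is not given in the sources used here. Depth was 16390289 to 21971215 counts per library, and replicates of a group differed by more than counting noise (chi-square per degree of freedom 2.78 to 7.26).

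Counts were fitted in R 4.3.3 with edgeR 4.0.16 (filterByExpr, TMM, robust quasi-likelihood F test, group as the only term, all 9 libraries in 1 fit), with Benjamini-Hochberg adjustment over 15154 genes. SE is the absolute log2 fold change over the square root of F. Alternatives used DESeq2 1.42.0, limma 3.58.1, other scalings, filters and thresholds, a replicate block and each library left out. The study called genes at a fold change over 2, a threshold used here only as an alternative. Named members are all 13 mitochondrial ones, up to 10 nuclear members called per direction by adjusted p (at least 5 by p where fewer were called) and the most abundant per complex; the other called members were named after their values were seen. Some results that enter the counts are not reported here by name. From each further list, genes were named among the 3 with the smallest adjusted p in a comparison. The members and lists were chosen with earlier results of these data known. Exon lengths are unions of GENCODE exons and were had for 84.8% of tested genes and for every member; promoters are from RefSeq, GRCh38.p14. The fitting code was tested on simulated data. It recovered 50% of genes changed 1.25-fold in UVA against NC, 66% in CT against UVA and 58% in CT against NC. Unchanged genes that were called numbered 13, 11 and 16 in the same order. Smaller changes were not simulated.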

Additional observations from a re-analysis of the deposited data

How the results depend on the processing

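Same-numbered libraries did not deviate together, but this cannot show that the samples were not paired, and the labels do not say. With a replicate block, 12 nuclear members were lower in UVA against NC and 2 higher in CT against UVA. In CT against NC, 4 nuclear members were higher and 4 lower. With the same block, 2 mitochondrial members were lower in UVA against NC and 4 higher in CT against UVA. In CT against NC, 3 mitochondrial members were higher and 4 lower. Leaving out each library gave 0 to 1 nuclear members higher and 4 to 17 lower in UVA against NC, 1 to 3 higher in CT against UVA, and 0 to 5 higher and 1 to 7 lower in CT against NC. For mitochondrial members it gave 2 to 6 lower, 1 to 4 higher, and 2 to 4 higher and 3 to 5 lower. In these fits, calls over all tested genes ranged from 2136 to 3405 in UVA against NC (3202 with all libraries). They ranged from 95 to 372 in CT against UVA (236) and from 3377 to 4560 in CT against NC (4517). In CT against NC, nuclear members called higher numbered 3 with library size only, 3 with only the 2 compared groups, 2 with DESeq2 and 2 with the exon length correction, which gave 14 lower; only the 2 compared groups gave 1 nuclear member higher in UVA against NC. At an adjusted p under 0.01, 5 nuclear members were lower in UVA against NC, 0 higher and 2 lower in CT against NC, and 1 mitochondrial member higher in CT against UVA. A fold change over 2 left 0 members in any comparison. At an unadjusted p, nuclear calls were 1 higher and 28 lower in UVA against NC, 24 higher in CT against UVA, and 9 higher and 10 lower in CT against NC. Mitochondrial calls were 6 higher and 2 lower in CT against UVA and 5 higher in CT against NC. The shares of all tested genes, higher and lower, were 16.8% and 16.6% in UVA against NC. They were 7.4% and 5.79% in CT against UVA and 20.5% and 19.4% in CT against NC. On the log2 scale, the CT to UVA ratio of the mitochondrial share was -0.013 with TMM-scaled library sizes and -0.032 with all counts, and that of mitochondrial over nuclear counts was -0.044 without COX1 and -0.079 with it. No called member changed sign under any alternative run. The median log2 fold change of the nuclear members in CT against NC (0.00) was negative with library size only (-0.01), the exon length correction (-0.03), and without NC replicate 1 or CT replicate 2 or 3 (-0.02 to -0.0011), and that of the mitochondrial members in CT against UVA (0.03) was -0.03 with the exon length correction. Where no cause is named, the cause was not tested. The other alternatives kept each count within 1.5 times.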
